A study of Mus musculus with 8 samples.

Results

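The liver of mice with non-alcoholic steatohepatitis (NASH) that received extracellular vesicles (EVs) from bovine colostrum was set against the liver of control mice, to describe what still differed from control under treatment. RNA of liver and colon was sequenced in 8 libraries, and 3 of them enter this comparison: EV low dose, EV high dose and control liver. The EV groups were NASH mice given a low or a high dose, as far as the design text of the series says, and the control group carries no other description. The liver library of NASH mice without EVs was not part of the comparison, and its values are given beside some genes as context. Dose amounts, route, strain, age, diet, duration, hour of collection and pooling of animals are not stated in the labels. Of 45777 genes in the table, the 7011 with 5 FPKM or more in at least 1 of the 3 libraries were kept. FPKM are fragments per kilobase of transcript, scaled to the mapped total of each library. Each gene has 1 ratio, the mean log2(FPKM + 1) of both EV libraries minus that of control, less the median gene (0.42 on the log2 scale, or 1.34-fold). Arhgap9 lay just inside the filter with 5.0002 FPKM at the high dose, and Paxbp1 just outside it with 4.9989 FPKM there.

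Each group had 1 library, so no test was possible, no difference can be set against the spread between animals, and the 2 EV libraries are different doses and not replicates. Genes are called higher or lower at 2-fold or more, a log2 ratio of 1 in either direction. Genes that reached 5 FPKM only in an EV library were kept through that library, and genes that reached it only in control through control, so counts over kept genes are descriptions. The addition of 1 FPKM understates the ratio of genes near or below that level. Sequencing depth is not given. The number of genes at 1 FPKM or above ran between 10469 and 11941 over the 3 libraries, and the non-coding RNAs of the signal recognition particle, 7SK, RNase P and RNase MRP took 54.0% of summed FPKM at the low dose, 50.2% at the high dose and 54.9% in control. Y-linked genes were present in all 3 libraries. Hepatocyte markers were abundant, as the liver label calls for: Alb, serum albumin, was at 15745 and 15525 FPKM at the low and high dose against 19466 FPKM in control.

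Steatohepatitis combines fat in hepatocytes with inflammation and scarring. Stored fat sits in droplets coated by perilipins and CIDE proteins, resident Kupffer cells and recruited monocytes take up lipid and dying cells, and stellate cells lay down collagen. In male mice pulsed growth hormone keeps a set of hepatocyte genes on, among them the major urinary proteins (Mups), and the liver clock, sterol sensing and bile acid feedback set the daily level of many metabolic enzymes.

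Of the 7011 genes, 588 (8.39%) were 2-fold or more higher in the EV livers than in control and 505 (7.20%) were lower. The low dose by itself had 597 higher (8.52%) and 562 lower (8.02%). The high dose had 573 higher (8.17%) and 496 lower (7.07%), and 0 genes were called on opposite sides of control at the 2 doses. Both doses were set against the same control library, so these counts are not independent. Of the 1093 called genes, 115 lay within 2-fold of control at one dose. The quartiles of the ratio over all genes were -0.36 and 0.34. Many of the higher genes were scarce in control, since 410 of the 588 were under 5 FPKM there and 121 under 1 FPKM. Most of the lower genes were well detected in the EV livers, since 410 of the 505 had 5 FPKM or more in an EV library. With 1 FPKM added, 42 genes were 8-fold or more lower and 29 were 16-fold or more lower, beside 26 and 13 genes that were higher by as much. The added 1 FPKM limits the ratio where control is near 0, as in the 121 higher genes under 1 FPKM there. How far it shaped the difference between the ends was not tested. With FPKM taken as deposited, without subtracting the median gene, 1083 genes were higher and 239 lower, so 81.9% of the called genes were higher there and 53.8% relative to the median gene. With libraries scaled to the same summed FPKM 1702 were higher and 169 lower, so 91.0% were higher.

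Gene lists are described by the number of members called and by the median ratio of the members that passed. For all genes that median is 0. Counts relative to the median gene are to be read beside the shares over all genes, 8.39% higher and 7.20% lower. Some lay near these shares and say little about their members. Such were the higher members among bile acid genes (10%), apolipoproteins (9.52%), endothelial markers (8.33%) and zonation markers (5.88%). Of 54 lists with a member that passed, the 18 with a median past 2-fold kept their sign under all 3 other scalings tried. Medians nearer 0 did not all do so. As deposited, 10 medians changed sign, those of conjugation enzymes, ribosomal proteins, P450 genes, fatty acid uptake, strain alleles, glucocorticoid targets, glucose, iron, stress response and zonation. With the same summed FPKM, those of apolipoproteins, bile acids, complement, the growth hormone axis, hepatocyte products, nuclear oxidative phosphorylation and the urea cycle did so as well, 17 in all. With median-of-ratios scaling 2 did, those of endothelial cells and adipocytes. Counts of calls moved with the scaling too, and are given under other scalings where their balance turned. Those counts are to be read beside the counts over all 7011 genes under the same scaling. As deposited these were 1083 higher and 239 lower, and with the same summed FPKM 1702 higher and 169 lower. The balance over all genes thus moved to the higher side as well, and a like turn in a list says little about its members.

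**Figure D1:**
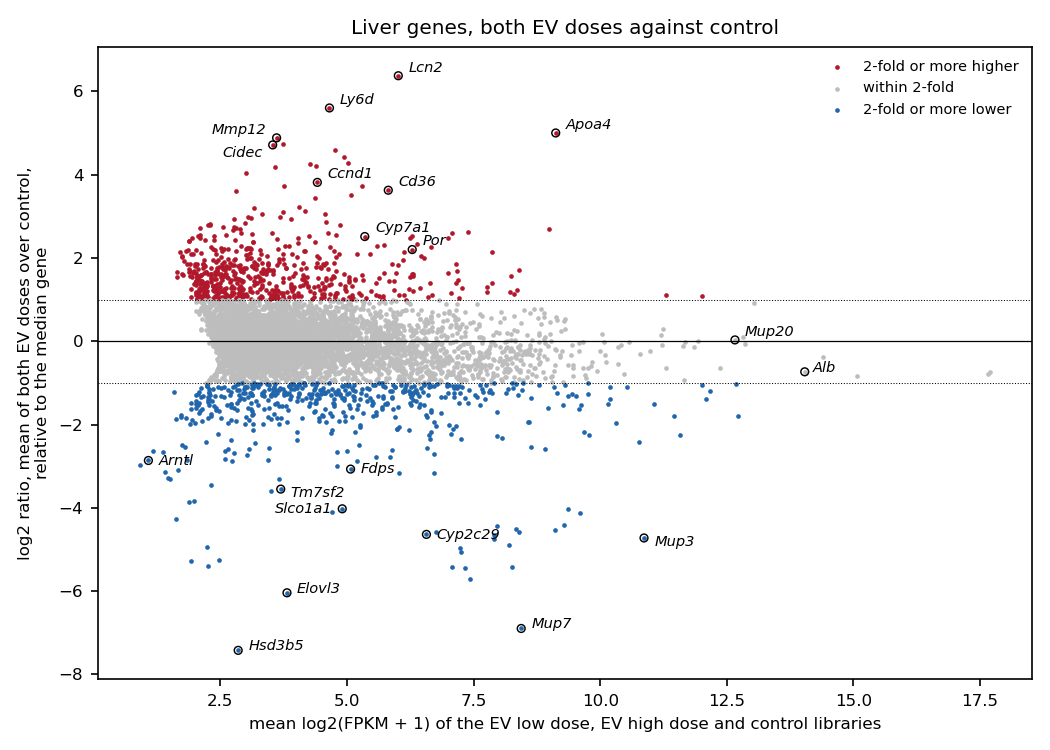
Each point is 1 of the 7011 kept liver genes, with mean log2(FPKM + 1) of the 3 libraries on the horizontal axis and the log2 ratio of both EV doses over control, relative to the median gene, on the vertical axis. Dotted lines mark 2-fold. Lcn2 lies highest at 6.38 and Hsd3b5 lowest at -7.42, and Mup20 lies near 0 among the most abundant genes.

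Among protein-coding genes Lcn2, Ly6d and Apoa4 had the largest ratios to control. Rankings of protein-coding genes here leave out predicted genes, antigen receptor segments and mitochondrial genes. Lcn2, which encodes lipocalin-2, a protein that binds bacterial iron carriers, was at 322 FPKM at the low dose and 296 FPKM at the high dose, against 1.80 FPKM in control (log2 ratio 6.38, gene ID 16819, chromosome 2, 32384637 to 32387739 in GRCm38.p6). Its level was 633 FPKM in the NASH library. Ly6d, a cell surface protein of the Ly6 family, was at 108 FPKM at the low dose and 92.8 FPKM at the high dose, against 0.558 FPKM in control (5.60). Apoa4, a lipoprotein component that the fatty liver secretes, was at 2319 FPKM at the low dose and 1631 FPKM at the high dose, against 44.5 FPKM in control (log2 ratio 5.0, gene ID 11808, chromosome 9, 46240844 to 46243458). Cidec, which enlarges lipid droplets, was at 42.8 FPKM at the low dose and 31.7 FPKM at the high dose, against 0.0793 FPKM in control (4.71). Mmp12, the macrophage elastase, was at 34.9 and 46.9 FPKM at the low and high dose against 0.0526 FPKM in control (4.88), and Gpnmb, a glycoprotein of lipid-laden macrophages, at 21.6 and 21.6 FPKM at the low and high dose against 0.0243 FPKM in control (4.05). In each of these 6 genes both EV libraries stood far above control and nearer to each other than to control. The 6 genes were chosen for a large ratio of the same EV libraries to the same control. Their position therefore follows largely from that choice and is no separate evidence that the doses agree. Clec7a, the receptor dectin-1, was at 50.1 and 61.2 FPKM at the low and high dose against 1.22 FPKM in control (4.25).

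Further genes at this end belong to detoxification, the interferon response and growth. Cyp2a4, a steroid hydroxylase that female mouse liver expresses more, was at 121 and 71.2 FPKM at the low and high dose against 2.28 FPKM in control (4.42), and Gsta1, a glutathione transferase, at 93 and 98.5 FPKM at the low and high dose against 2.71 FPKM in control (4.29). Ubd, a ubiquitin-like modifier induced by cytokines, was at 35 and 32.2 FPKM at the low and high dose against 0.434 FPKM in control (4.17), and Ifi27l2b, of an interferon-inducible family, at 61.7 and 57.1 FPKM at the low and high dose against 1.46 FPKM in control (4.20). Ccnd1, cyclin D1, which takes cells into the cycle, was at 56.1 and 55.2 FPKM at the low and high dose against 2.01 FPKM in control (3.82). Anxa2, a membrane-binding annexin, was at 105 and 97.1 FPKM at the low and high dose against 4.73 FPKM in control (3.74), and D17H6S56E-5 at 44.4 and 41.5 FPKM at the low and high dose against 0.235 FPKM in control (4.74). S100g, a calcium-binding protein, and Sult1e1, the estrogen sulfotransferase, were listed at 0 in control. S100g stood at 6.33 and 5.77 FPKM and Sult1e1 at 6.86 and 6.09 FPKM at the low and high dose, and for them no fold is given.

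At the other end were Hsd3b5, Elovl3 and the Mups. Hsd3b5, a male-biased steroid dehydrogenase, was at 0.124 FPKM at the low dose and 0.816 FPKM at the high dose, against 182 FPKM in control (-7.42, gene ID 15496, chromosome 3, 98618636 to 98645534). Elovl3, a fatty acid elongase, was at 2.14 FPKM at the low dose and 3.69 FPKM at the high dose, against 188 FPKM in control (-6.04). The NASH library held 0.160 FPKM of Hsd3b5 and 1.44 FPKM of Elovl3. The remaining 12 of the 14 lowest protein-coding genes were Mups.

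**Figure D2:**
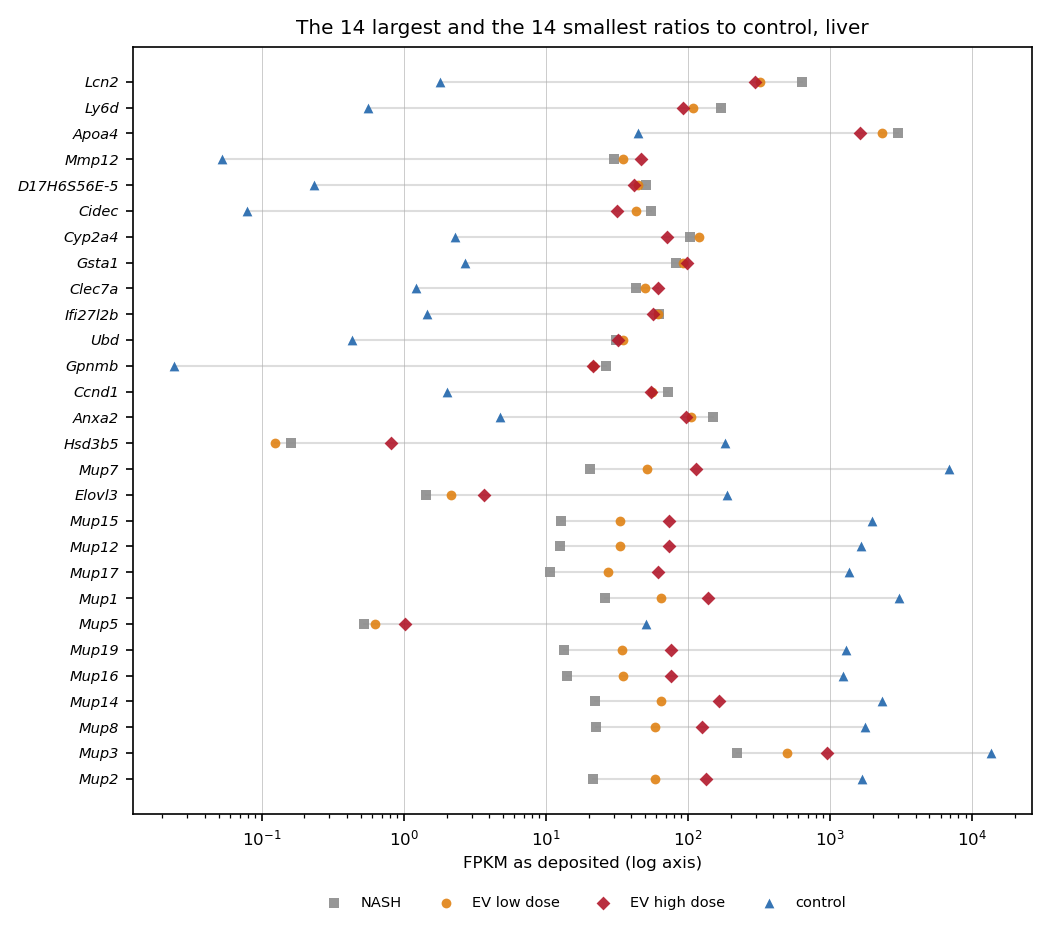
FPKM as deposited, on a log axis, of the 14 protein-coding genes with the largest and the 14 with the smallest ratio to control, with the liver NASH, EV low dose, EV high dose and control libraries as separate symbols. In the upper 14 genes the control symbol lies left of both EV symbols, in the lower 14 right of them, and the Mups are higher at the high dose than at the low dose.

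Mups are small carrier proteins that male mice secrete from liver into urine, where they bind pheromones. Of 22 listed genes 20 passed the filter, 19 were lower, 95% beside 7.20% of all genes, and none was higher (median log2 ratio -4.74). Mup7 was at 51.7 FPKM at the low dose and 113 FPKM at the high dose, against 6924 FPKM in control (-6.90, gene ID 100041658, chromosome 4, 60066469 to 60070475), and Mup3, the most abundant in control, at 499.98 FPKM at the low dose and 947 FPKM at the high dose, against 13629 FPKM in control (-4.72). Mup1 was at 65 and 138 FPKM at the low and high dose against 3075 FPKM in control (-5.42). In all 19 lower Mups the high dose library stood above the low dose library, by 0.30 to 1.33 on the log2 scale. Mup14 was at 64.4 and 164 FPKM at the low and high dose against 2311 FPKM in control. Mup2 was at 58.9 and 134 FPKM at the low and high dose against 1688 FPKM in control. Both were among the 4 called protein-coding genes with the largest gain at the high dose. Mup20, known as darcin, which attracts females, was the exception with 5930.5 FPKM at the low dose and 8689.6 FPKM at the high dose, against 5256 FPKM in control, a log2 ratio of 0.03. As a share of the FPKM of protein-coding genes, the Mups other than Mup20 made up 0.480% at the low dose, 0.932% at the high dose and 12.6% in control, and 0.194% in the NASH library. Mup20 made up 1.57%, 2.18% and 1.20% in the low dose, high dose and control libraries. The copies of this family are nearly identical, so the split of fragments between single Mups is uncertain, and both shares depend on the split with Mup20. They leave out the pseudogene Mup-ps19, at 3533 and 5206 FPKM at the low and high dose against 3190 FPKM in control.

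Other male-biased genes of hepatocytes were lower too. Of 26 listed, 22 passed, 20 were lower and none was higher (median -2.28). Serpina1e, an antitrypsin copy, was at 222 and 277 FPKM at the low and high dose against 3965 FPKM in control (-4.41). The P450 Cyp2c54 was at 7.16 and 14.2 FPKM at the low and high dose against 142 FPKM in control (-4.10). Slco1a1, a carrier that takes organic anions into hepatocytes, was at 6.29 and 22.3 FPKM at the low and high dose against 158 FPKM in control (-4.02), so the high dose lay above the low dose and both lay far below control. Among the called protein-coding genes that were ranked, Slco1a1 had the largest gain at the high dose over the low dose. Gstp1, a glutathione transferase, was at 581 and 567 FPKM at the low and high dose against 2048 FPKM in control (-2.25), and Egfr, the receptor of epidermal growth factor, at 38.8 and 45.9 FPKM at the low and high dose against 137 FPKM in control (-2.10). Bcl6, a repressor that acts on female-biased genes, was at 5.85 and 1.70 FPKM at the low and high dose against 6.12 FPKM in control (-1.15), and its call rests on the high dose library. C6 and Ugt2b38 were within 2-fold, at -0.92 and -0.63.

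Female-biased genes were mostly scarce. Of 25 listed 9 passed, 6 were higher and 2 lower (median 1.18), and over all 25 listed the median was -0.17. Next to Cyp2a4, Acot3, an acyl-CoA thioesterase, was at 12.9 and 19.3 FPKM at the low and high dose against 0.747 FPKM in control (2.85), and Cyp2b9 at 15.8 and 9.61 FPKM at the low and high dose against 0.839 FPKM in control (2.44). Cyp2c69 (-1.31) and Cyp2c40 (-1.30) were lower. The direction of this list depends on the genes that control lacked: over the members that reached 5 FPKM in control and at both doses its median was -0.22. Of 15 growth hormone axis genes 11 passed and 3 were lower (median -0.46). As deposited 1 was lower and 1 higher, and with the same summed FPKM 1 was lower and 3 higher. The 3 lower genes relative to the median gene were Prlr, the prolactin receptor, at 5.32 and 5.65 FPKM at the low and high dose against 14.4 FPKM in control (-1.67), Ghr, the growth hormone receptor, at 54.7 and 75.1 FPKM at the low and high dose against 115 FPKM in control (-1.25), and Igfals, which holds IGF1 in blood, at 19.5 and 26 FPKM at the low and high dose against 40.1 FPKM in control (-1.22). Igf1 itself was within 2-fold at -0.46.

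Among drug-metabolising P450 and partner genes 28 of 32 passed, 10 were lower and 4 higher (median -0.39), and with the same summed FPKM 5 were lower and 6 higher. Cyp2c29, an arachidonic acid and drug hydroxylase, was at 29.6 and 40.8 FPKM at the low and high dose against 665 FPKM in control (-4.64). Cyp2c50 was at 74.9 and 112 FPKM at the low and high dose against 295 FPKM in control (-2.09). Higher were Cyp2a5, a coumarin hydroxylase, at 1024 and 1062 FPKM at the low and high dose against 119.6 FPKM in control (2.70), and Por, the reductase that feeds electrons to microsomal P450s, at 147 and 137 FPKM at the low and high dose against 22.3 FPKM in control (2.20). The abundant Cyp3a11 (-0.24) and Cyp2e1 (-0.09) were within 2-fold. Cyp2c39, a retinoic acid hydroxylase, had a wide gap between doses, with 17.5 and 1.62 FPKM at the low and high dose against 0.218 FPKM in control (2.10). Its call rests on the low dose library, since the high dose alone gave 0.68. Conjugation enzymes and organic anion carriers had 32 of 33 passing, 8 lower and 4 higher (median -0.37). As deposited the balance turned to 3 lower and 6 higher, and with the same summed FPKM to 2 lower and 7 higher. Slc22a30 was at 19.3 and 26.1 FPKM at the low and high dose against 97.7 FPKM in control (-2.49) and Slco2a1, a prostaglandin carrier, at 3.03 and 2.32 FPKM at the low and high dose against 8.27 FPKM in control (-1.76). In the other direction, Gstm3 was at 192 and 181 FPKM at the low and high dose against 28.4 FPKM in control (2.26) and Abcb1a, a drug efflux pump, at 7.91 and 5.74 FPKM at the low and high dose against 0.329 FPKM in control (2.13).

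Cholesterol synthesis genes were low in the EV livers at most steps. Of 27 listed 25 passed, 18 were lower, 72.0% beside 7.20% of all genes, and none was higher (median -1.43). As deposited 13 were lower. Tm7sf2, a sterol reductase, was at 4.47 FPKM at the low dose and 6.16 FPKM at the high dose, against 53.9 FPKM in control (-3.55). Fdps, which makes farnesyl diphosphate, was at 16.9 FPKM at the low dose and 17.5 FPKM at the high dose, against 113 FPKM in control (-3.07), and Idi1, the isomerase before it, at 3.01 and 3.06 FPKM at the low and high dose against 18.4 FPKM in control (-2.68). Sqle, which oxidises squalene, was at 1.13 and 1.16 FPKM at the low and high dose against 8.25 FPKM in control (-2.53), and Hmgcs1, the synthase that starts the pathway, at 21.7 and 21 FPKM at the low and high dose against 53.3 FPKM in control (-1.70). Insig1, which holds back the sterol sensor, was at 37.8 and 38.5 FPKM at the low and high dose against 88.9 FPKM in control (-1.62).

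Promoters of this pathway are known targets of SREBP2 together with the CCAAT-binding factor NF-Y. Windows of 250 bases before to 50 after each start were taken from RefSeq (GRCm38.p6), and 19 genes of the list had 23 windows. The letters CCAAT, on either strand, were in 16 of the 23 windows (69.6%) and in 37.4% of all 32851 windows. TCACNCCAC, a form of the sterol regulatory element, was in 1 of the 23 (4.35%), that of Hmgcs1, and in 1.24% of all. The windows of Tm7sf2 and Hmgcs1 are shown because these genes are the lowest of the list and the holder of the sterol element. Capitals mark CCAAT, read as ATTGG on the other strand, and the sterol element. Tm7sf2 is on the minus strand at chr19:6067801-6068100 and Hmgcs1 on the plus strand at chr13:119690101-119690400.
Tm7sf2: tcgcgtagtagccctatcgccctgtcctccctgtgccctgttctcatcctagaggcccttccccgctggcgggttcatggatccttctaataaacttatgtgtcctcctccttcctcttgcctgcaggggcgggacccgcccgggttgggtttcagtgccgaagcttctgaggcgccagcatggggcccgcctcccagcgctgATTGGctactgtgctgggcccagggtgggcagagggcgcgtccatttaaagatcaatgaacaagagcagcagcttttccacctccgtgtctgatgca
Hmgcs1: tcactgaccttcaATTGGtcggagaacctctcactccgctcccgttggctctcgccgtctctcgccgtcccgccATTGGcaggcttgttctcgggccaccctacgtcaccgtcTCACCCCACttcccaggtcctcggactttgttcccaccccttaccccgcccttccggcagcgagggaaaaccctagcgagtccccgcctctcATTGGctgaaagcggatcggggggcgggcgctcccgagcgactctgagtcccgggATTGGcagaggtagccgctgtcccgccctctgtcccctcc
Tm7sf2 held 1 match and Hmgcs1 held 5. A match is a description of the letters and not of binding.

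Genes of cholesterol export and liver X receptor targets had 15 of 16 passing, 3 higher and 2 lower (median 0.37). These were 20.0% and 13.3%, beside 8.39% and 7.20% of all genes. Soat1, which esterifies cholesterol, was at 6.73 and 6.44 FPKM at the low and high dose against 0.869 FPKM in control (1.60), Abcg1, a sterol exporter of macrophages, at 8.87 and 7.45 FPKM at the low and high dose against 1.34 FPKM in control (1.55), and Pltp, the phospholipid transfer protein, at 36.3 and 31.4 FPKM at the low and high dose against 8.80 FPKM in control (1.41). Lcat (-1.08) and Lipc (-1.07) were just lower. In bile acid synthesis and transport 20 of 25 passed, 7 were lower and 2 higher (median -0.49). As deposited 3 were lower and 3 higher, and with the same summed FPKM 2 were lower and 3 higher. Enzymes of this pathway went apart. Cyp7a1, the rate-limiting enzyme of bile acid synthesis, was at 70.7 FPKM at the low dose and 88.9 FPKM at the high dose, against 9.52 FPKM in control (2.51), with 57.8 FPKM in the NASH library. Cyp8b1, which sets the share of cholic acid, was at 19.6 FPKM at the low dose and 35.8 FPKM at the high dose, against 141 FPKM in control (-2.79). Slc10a1, the carrier that brings bile acids into hepatocytes, was at 47.9 and 51.5 FPKM at the low and high dose against 165 FPKM in control (-2.12), and Nr0b2, the repressor SHP, at 17.8 and 10.2 FPKM at the low and high dose against 31.2 FPKM in control (-1.57). Abcb4, which exports phosphatidylcholine into bile, was at 129.8 and 125 FPKM at the low and high dose against 38.6 FPKM in control (1.28).

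Lipid droplet genes stood on the higher side. Of 21 listed 16 passed, 5 were higher and none lower (median 0.70, over all 21 listed 0.37). After Cidec came Plin4, at 11.8 and 8.17 FPKM at the low and high dose against 0.758 FPKM in control (2.20), and Plin2, the main perilipin of hepatocytes, at 483 and 478 FPKM at the low and high dose against 152 FPKM in control (1.24). Hsd17b13, a droplet enzyme of hepatocytes, was at 417 and 483 FPKM at the low and high dose against 153 FPKM in control (1.12). Fatty acid uptake and binding genes split, with 14 of 16 passing, 5 higher and 3 lower (median -0.08). Cd36, a fatty acid receptor, was at 143 and 142 FPKM at the low and high dose against 7.68 FPKM in control (3.63), and Lpl, which frees fatty acids from lipoproteins, at 47.8 and 48.9 FPKM at the low and high dose against 5.05 FPKM in control (2.61). Fabp7, a fatty acid binding protein, was at 28.1 and 35.7 FPKM at the low and high dose against 4.44 FPKM in control (2.17). Fabp5 (11.6 and 11.3 FPKM at the low and high dose against 32.3 FPKM in control; -1.84) and Fabp1, the main one of liver (3066 and 3941 FPKM at the low and high dose against 6859.9 FPKM in control; -1.40), were lower.

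De novo lipogenesis had 21 of 22 passing, 6 lower and 3 higher (median -0.69). Acss2, which makes acetyl-CoA from acetate, was at 15.5 and 16.5 FPKM at the low and high dose against 57.9 FPKM in control (-2.21), Mlxipl, the glucose-sensing factor ChREBP, at 7.67 and 9.04 FPKM at the low and high dose against 23.9 FPKM in control (-1.83), and Acly, the citrate lyase, at 22.2 and 21.3 FPKM at the low and high dose against 57.8 FPKM in control (-1.79). Fasn, the fatty acid synthase, was at 18.8 and 13.1 FPKM at the low and high dose against 42.1 FPKM in control (-1.78). Fads2, a desaturase, was higher at 230.4 and 225 FPKM at the low and high dose against 70.1 FPKM in control (1.27), and Lpin2, a phosphatidate phosphatase, at 87.2 and 81.1 FPKM at the low and high dose against 19.4 FPKM in control (1.64). Thrsp, a promoter of lipogenesis, was within 2-fold of control, at 57.2 and 43.6 FPKM at the low and high dose against 60.6 FPKM in control (-0.69), and was 13.2 FPKM in the NASH library. For oxidation of fatty acids and other PPARA targets, 37 of 40 passed, 11 were higher and none lower (median 0.46). Acot2, a mitochondrial thioesterase, was at 24.9 and 19.5 FPKM at the low and high dose against 1.86 FPKM in control (2.60), Vnn1, a pantetheinase, at 47.6 and 47.5 FPKM at the low and high dose against 7.98 FPKM in control (2.02), and Cpt1a, which admits fatty acids to mitochondria, at 157 and 145 FPKM at the low and high dose against 42.3 FPKM in control (1.39). Aldh3a2, which oxidises fatty aldehydes, was at 232 and 246 FPKM at the low and high dose against 48.5 FPKM in control (1.86).

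Apolipoprotein and VLDL assembly genes had 21 of 22 passing, 7 lower and 2 higher (median -0.45). As deposited 3 were lower and 5 higher, and with the same summed FPKM 2 were lower and 5 higher. Angptl8, an inhibitor of lipoprotein lipase raised by feeding, was at 18.9 and 12.9 FPKM at the low and high dose against 77.9 FPKM in control (-2.67), and Apoa2, of HDL, at 4530.4 and 5320.1 FPKM at the low and high dose against 12692 FPKM in control (-1.79). Apob (0.18) and Mttp (-0.06), the core of VLDL assembly, were within 2-fold, while Apoa4 at 5.0 was the far exception. In glucose metabolism and insulin response 24 of 30 passed, 4 were lower and 1 higher (median -0.13), while as deposited 3 were lower and 4 higher and with the same summed FPKM 2 were lower and 7 higher. Ppp1r3c, which brings phosphatase to glycogen, was at 4.0 and 4.87 FPKM at the low and high dose against 47.8 FPKM in control (-3.59), and G6pc, the glucose-6-phosphatase, at 57.1 and 57.5 FPKM at the low and high dose against 258 FPKM in control (-2.57). Pck1, the other gate of glucose output, was within 2-fold at 0.67.

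**Figure D3:**
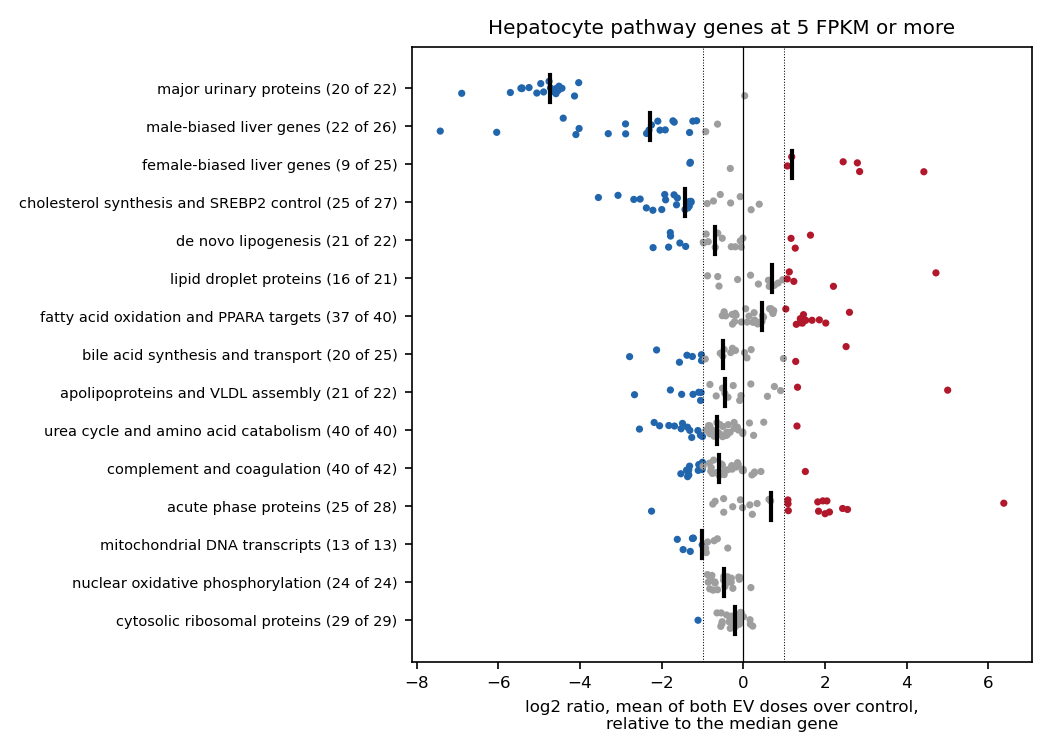
Each point is a gene of the named list with 5 FPKM or more in at least 1 of the 3 libraries, placed at its log2 ratio of both EV doses over control relative to the median gene, with the number kept of the number listed in brackets. Black bars are list medians and dotted lines mark 2-fold. The Mups lie furthest left with a median of -4.74 and 1 member near 0, cholesterol synthesis has no point past 2-fold on the right, and fatty acid oxidation has none on the left.

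Urea cycle and amino acid catabolism had 40 of 40 passing, 13 lower and 1 higher (median -0.64). Gnmt, which uses up methyl groups, was at 224 and 263 FPKM at the low and high dose against 1062 FPKM in control (-2.54), Agxt, which removes glyoxylate, at 63.2 and 68.3 FPKM at the low and high dose against 226 FPKM in control (-2.18), and Cbs, the first enzyme of transsulfuration, at 41.5 and 45.8 FPKM at the low and high dose against 137 FPKM in control (-2.05). Cps1, the entry to the urea cycle, was within 2-fold at -0.63, and Asns, a target of the amino acid response, was higher (1.31). Hepatocyte transcription factors and secreted products had 24 of 31 passing, 5 lower and none higher (median -0.53). Serpina1c was at 957 and 1249 FPKM at the low and high dose against 4374 FPKM in control (-2.42) and Ttr, transthyretin, at 1882 and 2197 FPKM at the low and high dose against 5281 FPKM in control (-1.79), while the factor Hnf4a (-0.56) and albumin (-0.73) were within 2-fold. Zonation markers had 17 of 20 passing, 5 lower and 1 higher (median -0.15). The lower ones included the periportal genes Cyp2f2 (-2.0), Hal (-1.82) and Gls2 (-1.49), and the pericentral Glul stood at -0.02. Not all periportal genes were lower, since Pck1 was within 2-fold. The higher member of the list was Hsd17b13 (1.12). A difference between zones was not tested. Complement and coagulation had 40 of 42 passing, 12 lower and 1 higher (median -0.61). C8g was at 136 and 168 FPKM at the low and high dose against 329 FPKM in control (-1.53) and Fgg, a fibrinogen chain, at 855 and 1015 FPKM at the low and high dose against 1830.3 FPKM in control (-1.39), and Cfp, properdin, which myeloid cells make, was the higher one at 37.2 and 35.6 FPKM at the low and high dose against 8.79 FPKM in control (1.52). As deposited, without the median gene subtracted, 7 of the urea cycle list, 4 of the hepatocyte products, 3 of the zonation markers and 1 of the complement list were lower, and 1, 1, 4 and 1 were higher. With the same summed FPKM the zonation list had 2 lower and 4 higher and the complement list none lower and 2 higher. The genes of these 4 lists that were lower were still abundant, between 11.9 FPKM for Amt and 2197 FPKM for Ttr in the EV libraries.

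Acute phase genes went the other way. Of 28 listed 25 passed, 12 were higher and 1 lower (median 0.67). After Lcn2, Saa3 was at 41.3 and 69.6 FPKM at the low and high dose against 5.99 FPKM in control (2.55) and Saa1 at 125 and 206 FPKM at the low and high dose against 29.2 FPKM in control (2.0), both serum amyloid genes and both further from control at the high dose. Hp, haptoglobin, was at 3372 and 3806 FPKM at the low and high dose against 1251 FPKM in control (1.10), and Il1rn, the antagonist of interleukin-1, at 6.65 and 9.27 FPKM at the low and high dose against 0.232 FPKM in control (2.43). Serpina3k, a serpin also kept up by growth hormone, was at 1684 and 2339 FPKM at the low and high dose against 7065 FPKM in control (-2.25), and Crp at -0.75.

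Hepcidin and iron genes had 17 of 21 passing, 3 higher and 2 lower (median -0.02). Hamp, the gene of the iron hormone hepcidin, was at 451 and 600.4 FPKM at the low and high dose against 403 FPKM in control (-0.05). Hamp2, its near-identical copy, was at 202 and 4.50 FPKM at the low and high dose against 169 FPKM in control (-2.77), so its call rests on the high dose library, and assignment between the copies is uncertain. Alas1, which starts haem synthesis, was at 317 and 356 FPKM at the low and high dose against 39.7 FPKM in control (2.63), and Hmox1, which breaks haem down, at 24.3 and 22.3 FPKM at the low and high dose against 5.15 FPKM in control (1.56). Metallothioneins and zinc transporters had 6 of 11 passing, 2 higher and 1 lower (median 0.08). Mt1 was at 137 and 169 FPKM at the low and high dose against 19 FPKM in control (2.52) and Mt2 at 16.9 and 22.5 FPKM at the low and high dose against 0.673 FPKM in control (3.20), while Slc30a10, a manganese exporter, was at 0.484 and 0.353 FPKM at the low and high dose against 9.33 FPKM in control (-3.28). NRF2 antioxidant targets had 27 of 31 passing, 6 higher and 4 lower (median 0.28). Besides Gsta1 they included Cbr3, a carbonyl reductase, at 8.57 and 6.19 FPKM at the low and high dose against 0.115 FPKM in control (2.48), and Nqo1, the quinone reductase, at 17.4 and 17.2 FPKM at the low and high dose against 2.75 FPKM in control (1.87). Gstp2 (-2.24), Sod1 (-1.25) and Cat, catalase (-1.10), were lower.

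Stress lists were mixed. The integrated stress response and unfolded protein response list had 25 of 34 passing, 6 higher and none lower (median -0.08). Among the higher genes, Atf3 was at 11.8 and 10.5 FPKM at the low and high dose against 0.351 FPKM in control (2.74). Fgf21, a stress and fasting hormone of liver, was at 16.4 and 10.9 FPKM at the low and high dose against 0.641 FPKM in control (2.72). Nupr1 was at 18.6 and 11.8 FPKM at the low and high dose against 1.56 FPKM in control (2.21). Which branch of the response they belong to here was not tested. The NASH library held 32.1 FPKM of Fgf21 and 40.4 FPKM of Nupr1. Chaperones of the endoplasmic reticulum such as Hspa5 (-0.08) were within 2-fold. Heat shock genes had 12 of 15 passing and all 12 within 2-fold (median 0.22). Immediate early genes had 10 of 21 passing, 3 higher and 1 lower (median 0.15), led by Klf6 at 17.9 and 15.5 FPKM at the low and high dose against 1.90 FPKM in control (2.19) with Dusp1 at -1.25. Glucocorticoid receptor and target genes had 13 of 16 passing, 5 higher and 3 lower (median -0.08). Fkbp5, a target that damps the receptor, was at 20.6 and 14.1 FPKM at the low and high dose against 2.83 FPKM in control (1.82), and Hsd11b1, which activates the hormone, at 170.5 and 198 FPKM at the low and high dose against 445 FPKM in control (-1.69).

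Clock genes stood apart in both directions. The liver clock is a loop in which BMAL1 (Arntl) and CLOCK drive the Per, Cry and Nr1d genes, which then repress it. Of 22 listed genes 15 passed, 7 were higher and 3 lower (median 0.63), and over all 22 the median was 0.15. Arntl was at 0.213 FPKM at the low dose and 0.184 FPKM at the high dose, against 5.53 FPKM in control (-2.86). Dbp, an output factor that BMAL1 and CLOCK drive, was at 28.5 FPKM at the low dose and 29.3 FPKM at the high dose, against 1.60 FPKM in control (3.11). They lay on opposite sides of control.

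Usp2, a deubiquitinase with a daily rhythm, was at 8.0 and 6.39 FPKM at the low and high dose against 0.0605 FPKM in control (2.53), Ciart, a clock repressor, at 5.67 and 5.61 FPKM at the low and high dose against 0.0882 FPKM in control (2.19), Per3 at 4.92 and 5.19 FPKM at the low and high dose against 0.364 FPKM in control (1.73), and Wee1, a kinase of the cell cycle under clock control, at 5.98 and 5.95 FPKM at the low and high dose against 0.432 FPKM in control (1.87). Nr1d2 (1.30) and Tef (1.21) were higher, and Nfil3 (-1.47) and Nr1d1 (-1.08) lower. Per1 and Per2 stayed under 5 FPKM in each library. The doses lay within 0.30 of each other on the log2 scale in these genes, Usp2 having the widest gap. The NASH library stood at 38.1 FPKM for Dbp and 0.816 FPKM for Arntl. The labels do not state the hour at which each liver was taken, so hour and group cannot be told apart for these genes. The same control library stands behind every ratio, so this limit holds for all other genes of the comparison too.

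The E-box CACGTG, which BMAL1 and CLOCK bind, was in 6 of 23 promoter windows of the clock list (26.1%) and in 7.15% of all windows. The D-box TTATGTAA, bound by DBP, TEF and NFIL3, was in 1 of the 23 (4.35%) and in 0.938% of all. The windows of Ciart, with 3 E-boxes, and Per3, with 2 D-boxes, are shown because these higher genes hold the motifs, which are in capitals. Ciart is on the minus strand at chr3:95882179-95882478 and Per3 on the minus strand at chr4:151044616-151044915.
Ciart: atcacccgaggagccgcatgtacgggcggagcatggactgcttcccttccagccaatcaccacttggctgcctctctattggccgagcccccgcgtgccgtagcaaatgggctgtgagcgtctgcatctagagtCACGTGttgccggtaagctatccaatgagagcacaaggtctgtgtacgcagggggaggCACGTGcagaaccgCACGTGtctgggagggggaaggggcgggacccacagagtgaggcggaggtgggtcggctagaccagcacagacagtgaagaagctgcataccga
Per3: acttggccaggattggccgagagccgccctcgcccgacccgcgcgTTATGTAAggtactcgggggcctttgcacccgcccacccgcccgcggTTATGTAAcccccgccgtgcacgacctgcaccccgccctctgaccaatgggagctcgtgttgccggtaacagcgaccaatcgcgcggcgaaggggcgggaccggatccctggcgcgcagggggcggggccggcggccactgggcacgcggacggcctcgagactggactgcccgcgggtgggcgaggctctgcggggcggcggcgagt
No match in a window says only that these letters are not there.

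**Figure D4:**
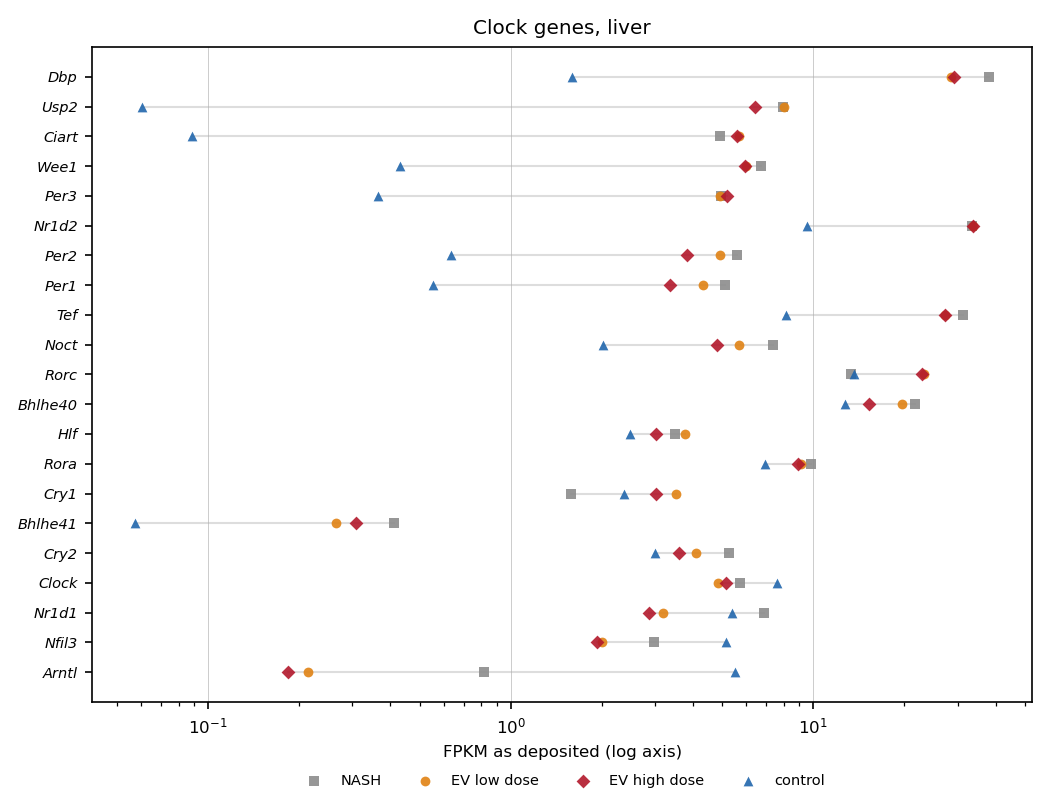
FPKM as deposited, on a log axis, of the clock genes detected in each of the EV and control libraries, with the liver NASH, EV low dose, EV high dose and control libraries as separate symbols, ordered by the ratio to control. Dbp at the top has its control symbol at 1.60 FPKM left of both EV symbols, and Arntl at the bottom has it at 5.53 FPKM right of them.

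Macrophage genes were among the most uniform. Of 18 macrophage and monocyte markers 14 passed, and the 14 were higher (median 1.81, over all 18 listed 1.71). Lyz2, lysozyme, was at 216 FPKM at the low dose and 287 FPKM at the high dose, against 32.4 FPKM in control (2.49). Adgre1, the F4/80 antigen, was at 34.7 and 36.4 FPKM at the low and high dose against 6.94 FPKM in control (1.79), Cd68 at 18.5 and 20.7 FPKM at the low and high dose against 3.32 FPKM in control (1.83), Ctss, a lysosomal protease, at 148 and 148 FPKM at the low and high dose against 18.9 FPKM in control (2.49), and Ccr2, the receptor of recruited monocytes, at 8.33 and 9.63 FPKM at the low and high dose against 0.376 FPKM in control (2.44). Summed over the list the level was 1039.9 FPKM at the low dose, 1102 FPKM at the high dose and 191 FPKM in control. In bulk RNA fewer cells of a type and less RNA per cell cannot be told apart, and likewise more cells and more RNA per cell.

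Markers of lipid-associated macrophages, which form in fatty tissue, had 14 of 14 passing, 12 higher and 1 lower (median 2.40). Trem2, a lipid-sensing receptor, was at 16.3 FPKM at the low dose and 17.3 FPKM at the high dose, against 0.0991 FPKM in control (3.60), Cd63, a tetraspanin of lysosomes, at 39 and 29.6 FPKM at the low and high dose against 0.987 FPKM in control (3.72), and Lgals3, galectin-3, at 51.2 and 48.1 FPKM at the low and high dose against 2.48 FPKM in control (3.45). Fabp5 was the lower one. The NASH library stood at 18.5 FPKM for Trem2 and 30.1 FPKM for Mmp12, and Mmp12 was higher at both EV doses than in that library. Kupffer cell markers had 11 of 12 passing, 5 higher and none lower (median 0.96). Cd5l, an apoptosis inhibitor that Kupffer cells secrete, was at 276 and 262 FPKM at the low and high dose against 32.2 FPKM in control (2.61), and Clec4f, a lectin of these cells, at 106 and 112 FPKM at the low and high dose against 33.4 FPKM in control (1.26). Timd4, of long-resident Kupffer cells, was within 2-fold at 4.31 and 5.75 FPKM at the low and high dose against 2.37 FPKM in control (0.41). MHC class II genes had 5 of 10 passing and the 5 higher (median 1.85, over all 10 listed 1.12). Cd74 was at 127 and 121 FPKM at the low and high dose against 30.6 FPKM in control (1.57). H2-Aa was at 89.4 and 109 FPKM at the low and high dose against 19.6 FPKM in control (1.85).

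Other leukocytes were scarce. Of 14 neutrophil markers 3 passed and were higher: Lcn2, S100a8 at 6.89 and 8.65 FPKM at the low and high dose against 1.95 FPKM in control (1.15) and S100a9 at 10.2 and 9.46 FPKM at the low and high dose against 2.08 FPKM in control (1.40). Over all 14 listed the median was -0.07. The granule genes Camp, Mpo and Elane and the surface marker Ly6g were listed at 0 in both EV libraries and in control. The summed level of the list, Lcn2 included, was 345 FPKM at the low dose, 319 FPKM at the high dose and 6.63 FPKM in control, and the part of neutrophils in the level of Lcn2 was not tested. Of 19 T and NK cell markers 1 passed, Ptprc, which all leukocytes share, at 15.1 and 18.3 FPKM at the low and high dose against 2.09 FPKM in control (2.10). Of 12 B and plasma cell markers none passed, with sums of 6.54 FPKM at the low dose, 11.7 FPKM at the high dose and 9.91 FPKM in control.

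Inflammatory mediators, chemokines and receptors had 16 of 39 passing, 10 higher and none lower (median 1.51, over all 39 listed 0.46). Vcam1, an adhesion molecule for monocytes, was at 38.5 and 36.3 FPKM at the low and high dose against 2.05 FPKM in control (3.23), Ccl6, a macrophage chemokine, at 39.3 and 40.8 FPKM at the low and high dose against 2.51 FPKM in control (3.13), and Ccl2, which draws monocytes, at 10.1 and 8.31 FPKM at the low and high dose against 0.324 FPKM in control (2.52). Tnf and Il6 were under 1 FPKM in each library. Endotoxin sensing genes had 8 of 19 passing, 4 higher and none lower (median 0.65, over all 19 listed 0.28). Cd14 was at 8.22 and 7.34 FPKM at the low and high dose against 0.704 FPKM in control (1.95). Tlr2 was at 5.72 and 6.80 FPKM at the low and high dose against 0.748 FPKM in control (1.63). Tlr8 was at 5.20 and 5.28 FPKM at the low and high dose against 0.507 FPKM in control (1.63). Cd14, Tlr2, Tlr8 and Irf8, the 4 higher members, reached 5 FPKM only in the EV libraries. Macrophage markers were higher in the same libraries, and their part in these lists was not tested.

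Interferon response genes had 31 of 37 passing, 16 higher and none lower (median 1.07, over all 37 listed 0.97). Usp18, which removes ISG15 from proteins, was at 26.5 FPKM at the low dose and 36.4 FPKM at the high dose, against 4.37 FPKM in control (2.16). Oas1a, a sensor of double-stranded RNA, was at 12.7 and 14.3 FPKM at the low and high dose against 1.59 FPKM in control (2.07), Ifit3 at 16.6 and 28.3 FPKM at the low and high dose against 3.71 FPKM in control (1.86) and Ifi27l2a at 46.9 and 53.3 FPKM at the low and high dose against 8.0 FPKM in control (2.09). Ifit1 (6.98 and 11.3 FPKM at the low and high dose against 1.96 FPKM in control) and Ifit3 stood further from control at the high dose. Iigp1 (-0.07) and Stat2 (-0.16) were near the median gene. Macrophage markers were higher in the same libraries, and their part in this list was not tested.

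A short form of the interferon-stimulated response element, a pair of TTTC units with 2 bases of any kind between, read on both strands, was in 18 of 32 promoter windows of the list (56.2%) and in 3.44% of all windows. Ifit3 and Oas1a are shown because both were higher and hold the motif, which is in capitals. Ifit3 is on the plus strand at chr19:34583279-34583578 and Oas1a on the minus strand at chr5:120907476-120907775.
Ifit3: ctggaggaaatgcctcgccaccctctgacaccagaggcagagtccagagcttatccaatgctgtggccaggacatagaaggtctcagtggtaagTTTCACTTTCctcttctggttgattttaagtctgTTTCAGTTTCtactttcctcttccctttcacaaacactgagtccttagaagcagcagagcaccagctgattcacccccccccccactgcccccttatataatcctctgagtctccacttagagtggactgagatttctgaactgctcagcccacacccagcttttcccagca
Oas1a: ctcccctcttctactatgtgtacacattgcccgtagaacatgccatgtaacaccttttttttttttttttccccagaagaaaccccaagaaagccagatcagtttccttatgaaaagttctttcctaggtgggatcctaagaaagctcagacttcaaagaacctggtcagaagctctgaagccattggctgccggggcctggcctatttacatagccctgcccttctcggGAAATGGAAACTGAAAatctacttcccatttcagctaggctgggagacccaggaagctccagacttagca
Each window holds 2 matches, which overlap in Oas1a and are read there from the other strand.

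Matrix genes stood on the higher side. Of 39 collagens and matrix genes 18 passed, 12 were higher and none lower (median 1.29, over all 39 listed 0.61), 66.7% beside 8.39% of all genes. Col3a1, a fibrillar collagen of scar, was at 61.8 FPKM at the low dose and 58 FPKM at the high dose, against 5.57 FPKM in control (2.80), with 79.5 FPKM in the NASH library. Col1a1 was at 7.95 and 5.91 FPKM at the low and high dose against 0.516 FPKM in control (1.96) and Col1a2 at 15.1 and 13 FPKM at the low and high dose against 1.82 FPKM in control (1.99). Col6a3 was at 8.29 and 8.12 FPKM at the low and high dose against 0.993 FPKM in control (1.79). Fn1, fibronectin, which hepatocytes also make, was within 2-fold at -0.60. Of 23 metalloproteinase and inhibitor genes 6 passed, and Mmp12 was the single one of these 6 past 2-fold (median 0.83). Over all 23 listed, with those under 5 FPKM included, 8 were higher and none lower (median 0.81). Timp1, an inhibitor of these enzymes, was listed at 0 in control, at 3.27 FPKM at the low dose and 3.51 FPKM at the high dose. TGF-beta signal genes had 7 of 21 passing, 3 higher and 1 lower (median 0.67, over all 21 listed 0.04). Tgfbi, an induced matrix protein, was at 35.9 and 36.1 FPKM at the low and high dose against 8.94 FPKM in control (1.48). Tgfb1 was below 5 FPKM, at 4.27 and 3.15 FPKM at the low and high dose against 1.17 FPKM in control.

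Stellate cell and myofibroblast markers had 9 of 18 passing, 4 higher and none lower (median 0.76, over all 18 listed 0.61). Lum, a proteoglycan, was at 23 and 29.7 FPKM at the low and high dose against 3.14 FPKM in control (2.29), and Tagln, of contractile cells, at 6.29 and 6.81 FPKM at the low and high dose against 0.549 FPKM in control (1.87). Lrat, which stores vitamin A in quiescent stellate cells, was within 2-fold at 0.71. Endothelial markers stayed near the median gene, with 12 of 16 passing, 1 higher and none lower (median 0.05). The higher one was Lyve1, at 10.6 and 10.4 FPKM at the low and high dose against 2.89 FPKM in control (1.14). Of 12 cholangiocyte markers 3 passed and 2 were higher (median 1.36, over all 12 listed -0.10). Krt23 was at 12.1 and 10.3 FPKM at the low and high dose against 0.549 FPKM in control (2.56), and was kept through the EV libraries. Spp1, osteopontin, which macrophages also make, was at 40.4 and 46 FPKM at the low and high dose against 11.8 FPKM in control (1.36). Krt19 was at 0.642 and 1.01 FPKM at the low and high dose against 0.341 FPKM in control. Hepatocyte markers had 9 of 9 passing, 4 lower and none higher (median -0.73). Erythroid markers had 5 of 8 passing and 3 lower (median -1.27), with Hba-a1, a globin, at 114 and 115 FPKM at the low and high dose against 239 FPKM in control (-1.47) and Alas2 at -1.91.

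Markers of tissues next to the liver were nearly absent. Adipocyte markers had 2 of 8 passing, Lpl higher and Car3, which male liver also makes, at 239 and 349 FPKM at the low and high dose against 1312 FPKM in control (-2.60), and Adipoq, Lep and Retn were listed at 0. None of 6 mesothelium markers passed. Of 8 colon epithelium markers 1 passed, the water channel Aqp8, which liver also expresses (66.4 and 66.6 FPKM at the low and high dose against 142 FPKM in control; -1.50). Of 10 pancreas markers 1 passed, the elastase Cela1 (5.57 and 5.79 FPKM at the low and high dose against 28.5 FPKM in control; -2.56), and Pnlip, Prss1 and Ins2 were listed at 0.

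**Figure D5:**
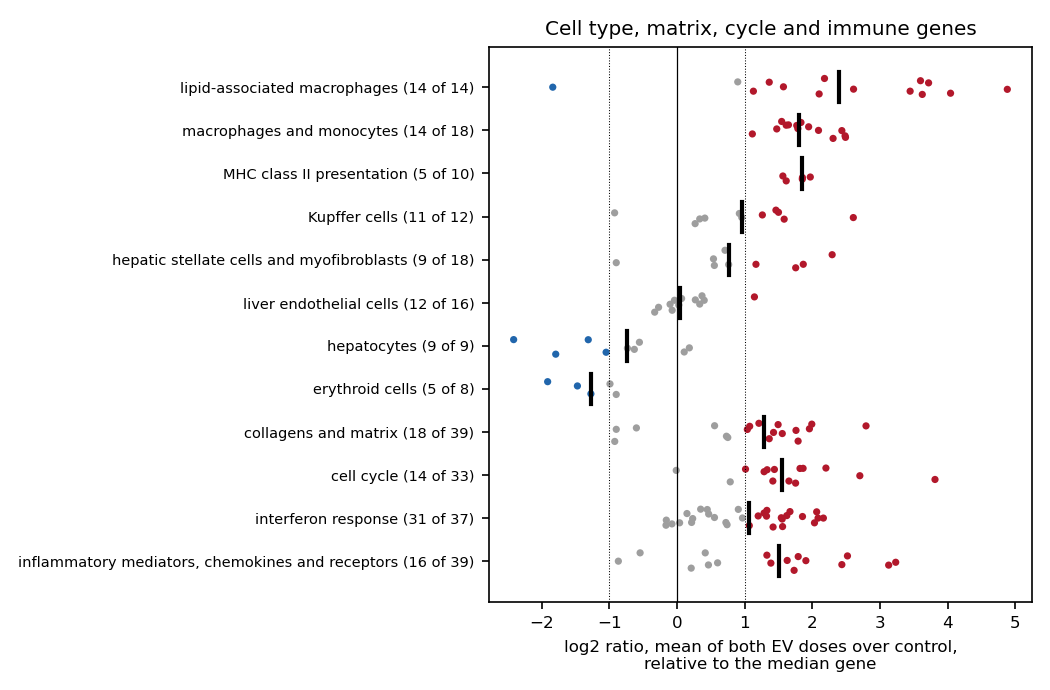
Each point is a gene of the named list with 5 FPKM or more in at least 1 of the 3 libraries, at its log2 ratio of both EV doses over control relative to the median gene, with the number kept of the number listed in brackets. Black bars are list medians and dotted lines mark 2-fold. The 14 macrophage markers lie right of 2-fold around 1.81, endothelial markers lie around 0.05, and hepatocyte and erythroid markers have no point past 2-fold on the right.

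Cell cycle genes were higher. Of 33 listed 14 passed, 12 were higher and none lower (median 1.55, over all 33 listed 1.33). Besides Ccnd1, Mcm6, a subunit of the replicative helicase, was at 15.1 FPKM at the low dose and 13.3 FPKM at the high dose, against 0.743 FPKM in control (2.70), and Mcm5 at 9.12 and 8.06 FPKM at the low and high dose against 0.559 FPKM in control (2.20). Top2a, which untangles DNA at mitosis, was at 5.43 and 5.28 FPKM at the low and high dose against 0.308 FPKM in control (1.86). The mitotic marker Mki67 was under 5 FPKM, at 3.30 and 3.03 FPKM at the low and high dose against 0.225 FPKM in control. The p53 and cell death list had 12 of 22 passing, 4 higher and none lower (median 0.67), with Bcl2a1b, a survival gene of leukocytes, at 11.9 and 18.2 FPKM at the low and high dose against 1.49 FPKM in control (2.25), Mlkl, which carries out necroptosis, at 7.84 and 8.95 FPKM at the low and high dose against 1.38 FPKM in control (1.56), and Cdkn1a at 5.75 and 4.72 FPKM at the low and high dose against 0.715 FPKM in control (1.44). Which cells were dividing cannot be read from bulk RNA.

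Of transcripts of the mitochondrial genome all 13 protein-coding ones passed, 7 were lower, 6 within 2-fold and none higher (median -1.01). As deposited 2 were lower, and with the same summed FPKM none was (median -0.34). ND4 was at 26.9 and 26.7 FPKM at the low and high dose against 62.9 FPKM in control (-1.62) and CYTB at 98.2 and 111 FPKM at the low and high dose against 187 FPKM in control (-1.25), while the abundant COX1 was within 2-fold at 4584 and 5525 FPKM at the low and high dose against 5861 FPKM in control (-0.64). The 24 nuclear genes of oxidative phosphorylation were all within 2-fold (median -0.48). Of 29 cytosolic ribosomal proteins 1 was lower (median -0.20), and as deposited none was. By gene type, 37 of 95 long non-coding RNAs that passed were lower and 9 higher, and 560 of 6608 protein-coding genes were higher and 413 lower. Some abundant genes lay at the median gene. C1s1, a complement protease, was at 155 and 157 FPKM at the low and high dose against 117 FPKM in control (0.00), and the ribosomal protein gene Rplp0 at 374 and 329.8 FPKM at the low and high dose against 262 FPKM in control (0.00). The elongation factor gene Eef2 was at 276 and 244 FPKM at the low and high dose against 195 FPKM in control (-0.01) and Agxt2, an aminotransferase, at 81.5 and 87.1 FPKM at the low and high dose against 62.6 FPKM in control (0.01).

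Genes known to carry different alleles in laboratory strains had 11 of 25 passing, 2 higher and 2 lower (median -0.03). Glo1, glyoxalase, whose copy number varies among strains, was at 88.7 FPKM at the low dose and 106 FPKM at the high dose, against 299.98 FPKM in control (-2.03), with 77.2 FPKM in the NASH library. H2-Ea, a class II chain that is silent in some strains, was at 0 FPKM in both EV libraries and at 1.55 FPKM in control, while the 5 class II genes that passed were higher in the EV livers. Apoa2 was the other lower member, Cd5l the furthest higher one, and Wfdc17, a leukocyte gene, was at 49.6 and 59 FPKM at the low and high dose against 18.2 FPKM in control (1.10). The labels do not state the strain of each group, so strain and group cannot be told apart for these genes. With the same control library behind every ratio, this limit also holds for all other genes of the comparison.

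The doses resembled each other far more than either resembled control. Over the 7011 genes the high dose minus the low dose had a standard deviation of 0.22 on the log2 scale, with quartiles of -0.10 and 0.09. In total 38 genes were 2-fold or more apart between the doses, 24 (0.342%) higher at the high dose and 14 (0.200%) lower, and 30 of the 38 were also called against control. Among called protein-coding genes that were lower at the high dose than at the low dose, Pmm1, a phosphomannomutase, came after Hamp2, Cyp2c39 and Bcl6, at 8.20 and 3.30 FPKM at the low and high dose against 0.957 FPKM in control (1.27). The high dose alone gave 0.72 for Pmm1, so its call rests on the low dose library. The pseudogenes Gm13841 and Gm8210 had wider gaps than Bcl6, with 14.3 and 1.92 FPKM for Gm13841 and 9.85 and 1.13 FPKM for Gm8210 at the low and high dose. The called protein-coding genes with the largest gain at the high dose were Slco1a1, Mup-ps16, Mup14 and Mup2. Mup-ps16 was at 2.57 and 8.20 FPKM at the low and high dose against 22.2 FPKM in control (-2.44).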

How the data were processed

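The authors deposited FPKM, 1 column for each of the 8 libraries. Per the labels, RNA came from TRIzol extraction followed by RNeasy Plus columns, and TruSeq Stranded Total RNA Gold was the library kit. Tools named in the submitters' processing notes were HISAT2, StringTie and Trimmomatic 0.38, with the build mm10, and how each was used is not stated there. Of 45777 gene identifiers 45679 were matched to symbols of RefSeq GRCm38.p6 and 98 were not. Since FPKM divide each library by its own total, a gene's value also moves with the share taken by other genes.

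Groups were taken from the sample titles. The 3 liver libraries EV low dose, EV high dose and control were compared as log2(FPKM + 1), with a pseudocount of 1 FPKM, on genes with 5 FPKM or more in at least 1 of them. The ratio was the mean of both EV libraries minus control, less the median over kept genes, and 2-fold or more was called. With 1 library per group no test was run. The members, the 56 gene lists and the alternatives were chosen with earlier results of these data known. Named were the 14 protein-coding genes with the largest and the 14 with the smallest ratio, up to 4 members per list with the largest ratio in size, the 4 called protein-coding genes with the widest gap between doses in each direction, the genes next to the filter, and the 4 genes at 50 FPKM or more in control nearest to 0. The rankings of protein-coding genes left out predicted genes (Gm, Rik, LOC, BC or AA number symbols), antigen receptor segments and mitochondrial genes. Other named genes, given to complete a pathway or a marker list, were chosen after their values were seen. A few genes that the lists hold are counted there and not reported one by one here.

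Motifs were searched on both strands in 32851 RefSeq promoter windows of 300 bases. All motif searches gave the following shares of list windows beside all windows. The antioxidant response element, TGAC and GCA with 3 bases of any kind between, was in 1 of 35 NRF2 target windows (2.86%) and 3.04% of all, and the heat shock element, taken as GAA, TTC and GAA with 2 bases between, in 4 of 17 heat shock windows (23.5%) and 0.603% of all. The metal response element TGCNCNC was in 10 of 13 windows of the metallothionein list (76.9%) and 51.0% of all, and the D-box with 1 open base, TTANGTAA, in 1 of 23 clock windows (4.35%) and 2.32% of all.

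The alternatives were pseudocounts of 0.1 and 5 FPKM, no subtraction of the median gene, median-of-ratios scaling, the same summed FPKM, a filter of 1 FPKM or none, protein-coding genes only, each dose alone, and the log2 of the mean FPKM of both doses. One that asks for 5 FPKM in all 3 libraries at once was added after the data were seen. The depth is unknown. Among genes under 0.05 FPKM in both libraries the most common ratio, which may mark 1 fragment, was 1.11-fold for the low dose over control and 1.17-fold for the high dose over control. The code was tested on simulated libraries. Software was numpy 2.4.6, pandas 2.3.3 and matplotlib 3.10.9 under Python 3.11.15.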

Additional observations from a re-analysis of the deposited data

How the results depend on the processing

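Relative to the median gene 588 genes were higher and 505 lower. These counts moved by over 1.5 times in at least 1 direction under 5 alternatives. With a pseudocount of 5 FPKM they were 265 and 310, as deposited 1083 and 239, with the same summed FPKM 1702 and 169, and with no filter, where the median gene was at 0, 1701 and 317. With 5 FPKM asked of all 3 libraries, an alternative added after the data were seen, they were 219 and 310, since genes absent on one side were left out. The share of called genes that were higher was 53.8%, and 81.9%, 91.0%, 84.3% and 41.4% as deposited, with the same sum, with no filter and with 5 FPKM in each library. The other 7 alternatives gave 552 to 796 higher and 432 to 676 lower. The low dose alone gave 597 and 562 and the high dose alone 573 and 496.

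The median of the female-biased list turned to -0.22 with 5 FPKM asked of all libraries, and with no filter the medians of colon epithelium and pancreas markers were 0.00699 and 0, since most of their members are scarce in liver. Of 189 named genes past 2-fold, 37 were no longer past it with a pseudocount of 5 FPKM, 16 as deposited and 26 with the same sum, and none turned to the other side under any alternative.

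No paired analysis was possible because each group had 1 library. Leaving out a replicate was not possible for the same reason, apart from taking each dose alone. How far animals of a group differ, and whether 1 library is typical of its group, cannot be read from these data.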

Other observations

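Pseudogenes and long non-coding RNAs that the comparison did not name one by one held some of the widest gaps. Rps18-ps6, a pseudogene of a ribosomal protein, was at 0.150 FPKM at the low dose and 0.306 FPKM at the high dose, against 34.8 FPKM in control (log2 ratio -5.29), while its parent Rps18 was at 579 and 583 FPKM at the low and high dose against 493 FPKM in control (-0.18). Rps19-ps6 was at 0.306 and 0.224 FPKM at the low and high dose against 17.4 FPKM in control (-4.28). Glo1-ps, a pseudogene of the glyoxalase gene, was at 1.46 and 1.51 FPKM at the low and high dose against 19.2 FPKM in control (-3.44), the same direction as Glo1. Assignment of fragments between a pseudogene and its parent is uncertain. The long non-coding RNA 1810008I18Rik was at 12.97 and 15.8 FPKM at the low and high dose against 90.3 FPKM in control (-2.99), with 13.9 FPKM in the NASH library. These genes were chosen after their values were seen.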
